A study of Mus musculus with 45 samples.

Results

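The members are 8 mouse genes that encode transcription factors of the mesenchymal programme: Zeb1, Zeb2, Snai1, Snai2, Twist1, Twist2, Tcf4 and Prrx1. They were chosen by name, with no measured value in the rule, though earlier results of these data were known at the time. All 8 had a row among the 23575 genes measured, and 222 of the 276608 measured transcripts carried one of their names. Zeb1, Zeb2, Snai1 and Tcf4 are also transcribed in neural progenitors, the starting cells here, so the name of the group is a label from other tissues and not a statement about these cells.

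Epithelial cells adhere through E-cadherin and tight junctions, and mesenchymal cells do not. Zinc-finger repressors of the Snail family (Snai1, Snai2) and the Zeb family (Zeb1, Zeb2) bind E-box sequences in epithelial genes such as Cdh1 and repress them. Twist1 and Twist2 are basic helix-loop-helix factors that pair with E proteins such as Tcf4 (also called E2-2), and the Id proteins block that pairing. Prrx1 is a paired-related homeobox factor of mesenchyme. MicroRNAs of the miR-200 family bind the 3′ ends of Zeb1 and Zeb2 RNA and lower both, while the Zeb proteins repress the miR-200 genes. Pluripotent stem cells are epithelial, and fibroblasts pass through a mesenchymal-to-epithelial transition when they are reprogrammed. In neural progenitors, Zeb1, Zeb2 and Tcf4 have their own roles in progenitor maintenance and neuronal differentiation.

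Long-read RNA sequencing followed the reprogramming of neural progenitor cells (NPCs) into induced pluripotent stem cells in 45 libraries. The NPCs were derived from O4G, a mouse embryonic stem cell (ESC) line that carries a GFP reporter driven by the Oct4 promoter and itself comes from the line R1. They were wild type (WT) or stably transfected with a doxycycline-inducible construct, labelled OKMS-Luciferase-AS (Oct4, Klf4, c-Myc and Sox2) or OKS-Luciferase-AS (without c-Myc). NPCs were kept in NPC medium (day 0), then plated on gelatin and moved to serum medium with leukaemia inhibitory factor and doxycycline (FBS-LIF dox). Some cultures were later transferred into 2i-LIF, in which inhibitors of GSK3 and MEK replace serum; the ESC lines O4G, R1 and R1-Clone3 were kept in the same medium. The 22 R9 libraries, direct cDNA on R9 flow cells, held 4 NPC libraries (2 WT, 1 OKMS, 1 OKS), 1 WT library after 2 days in FBS-LIF dox, 12 libraries of OKMS and OKS in FBS-LIF dox at days 2, 4, 6, 10, 14 and 20, 3 in 2i-LIF (OKMS at days 14 and 20, OKS at day 20) and 2 ESC libraries. The 23 R10 libraries, PCR cDNA on R10 flow cells, held 4 NPC libraries (2 WT, 1 OKMS, 1 OKS), 2 WT libraries at day 2, 8 in FBS-LIF dox (OKMS at days 2, 4, 6, 10 and 18, OKS at days 2, 6 and 18), 2 in 2i-LIF at day 18 and 7 ESC libraries. Each system, day and chemistry was thus 1 library, and nothing in the labels says that repeated libraries came from separate derivations, so p-values measure the spread between these libraries. NPC medium, FBS-LIF dox and 2i-LIF differ in many components, and WT cells received the plating, the serum and the doxycycline together, so these cannot be told apart. In bulk RNA, fewer cells of a type and less RNA per cell cannot be told apart either.

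Gene levels are given as CPM, read counts scaled to a common library total. Reads on genes ranged from 447990 to 1390424 per R9 library and from 566599 to 4236442 per R10 library, so the limit set by a count of 0 (3 reads) lay between 2.158 and 6.697 CPM in R9 and between 0.708 and 5.295 CPM in R10. These limits cover counting error only. The cells matched their labels by marker: the summed level of 8 neural progenitor markers was 3371 to 5870 CPM in R9 NPCs and 4127 to 5428 CPM in R10 NPCs, and that of 7 pluripotency markers was 10300 to 13020 CPM in R10 ESCs against 13.62 to 25.12 CPM in R10 NPCs. Markers of fibroblasts (6 genes, Dcn, Lum, Pdgfrb, Col1a1, Col3a1 and Postn) summed to 13.46 to 212.6 CPM in R9 NPCs and 6.987 to 135 CPM in R10 NPCs. At day 2 in WT cells they summed to 256.1 CPM in R9 and to 42.28 and 152.9 CPM in R10. In FBS-LIF dox with factors they summed to 7.388 to 144.8 CPM in R9 and 10.39 to 320.2 CPM in R10, and in ESCs to 2.84 to 4.654 and 5.417 to 15.09 CPM.

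The sequences by which miR-200 recognises Zeb2 are shown because the deposited Zeb2 transcripts differ in whether they contain them; the microRNAs themselves were not measured in these libraries. The mature mouse sequences (RefSeq, GRCm38.p6) fall into groups by their seed, bases 2 to 8, which is in capitals.
mmu-miR-200b-3p: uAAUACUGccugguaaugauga
mmu-miR-200c-3p: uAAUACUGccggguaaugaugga
mmu-miR-429-3p: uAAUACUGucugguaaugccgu
mmu-miR-200a-3p: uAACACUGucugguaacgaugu
mmu-miR-141-3p: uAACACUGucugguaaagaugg
The last exon of the annotated Zeb2 messenger RNA (GENCODE, GRCm38, chromosome 2, minus strand) held 5 matches to CAGTATT, the complement of the seed of miR-200b, miR-200c and miR-429, and 3 matches to CAGTGTT, the complement of the seed of miR-200a and miR-141. The motifs were searched on the transcript strand and do not overlap each other. The first match of each kind is shown with its match in capitals.
Zeb2 site at chr2:44988358-44988364 (miR-200a, miR-141): aaaattttgtaCAGTGTTaaggccta
Zeb2 site at chr2:44988174-44988180 (miR-200b, miR-200c, miR-429): ctaccatacatCAGTATTttattatt
Each of the 8 matches was held by 4 of the 19 deposited Zeb2 transcripts, and these made up 12.2% of the summed Zeb2 transcript level over the R9 libraries and 8.827% over the R10 libraries. Transcript levels are scaled by length, so a read on a long transcript weighs less in these shares than a read on a short one. A match is a description of the letters and not a shown site of action.

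The first comparison asked how the members differ between the end points of the path, NPCs and ESCs. Zeb1, Zeb2, Twist1, Tcf4 and Prrx1 were lower in ESCs than in NPCs in both chemistries. In R10, 5 of the 6 members tested were called lower, where 23.5% of all genes tested were called lower and 45.8% were called in either direction; Snai1 did not pass the test. In R9, 5 of the 7 members tested were called lower, against 18.4% of all genes called lower and 36.0% called in either direction. Calls rest on limma fits of log2(CPM + 1), two-sided: the p-value, adjusted over all genes by Benjamini-Hochberg, had to be under 0.05 and the log2 difference at least 1 in size. Snai2 in both chemistries and Twist2 in R10 did not pass the filter on low values. The members that entered were tested through the NPC group, where they were high, so the count is a description.

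**Figure D1:**
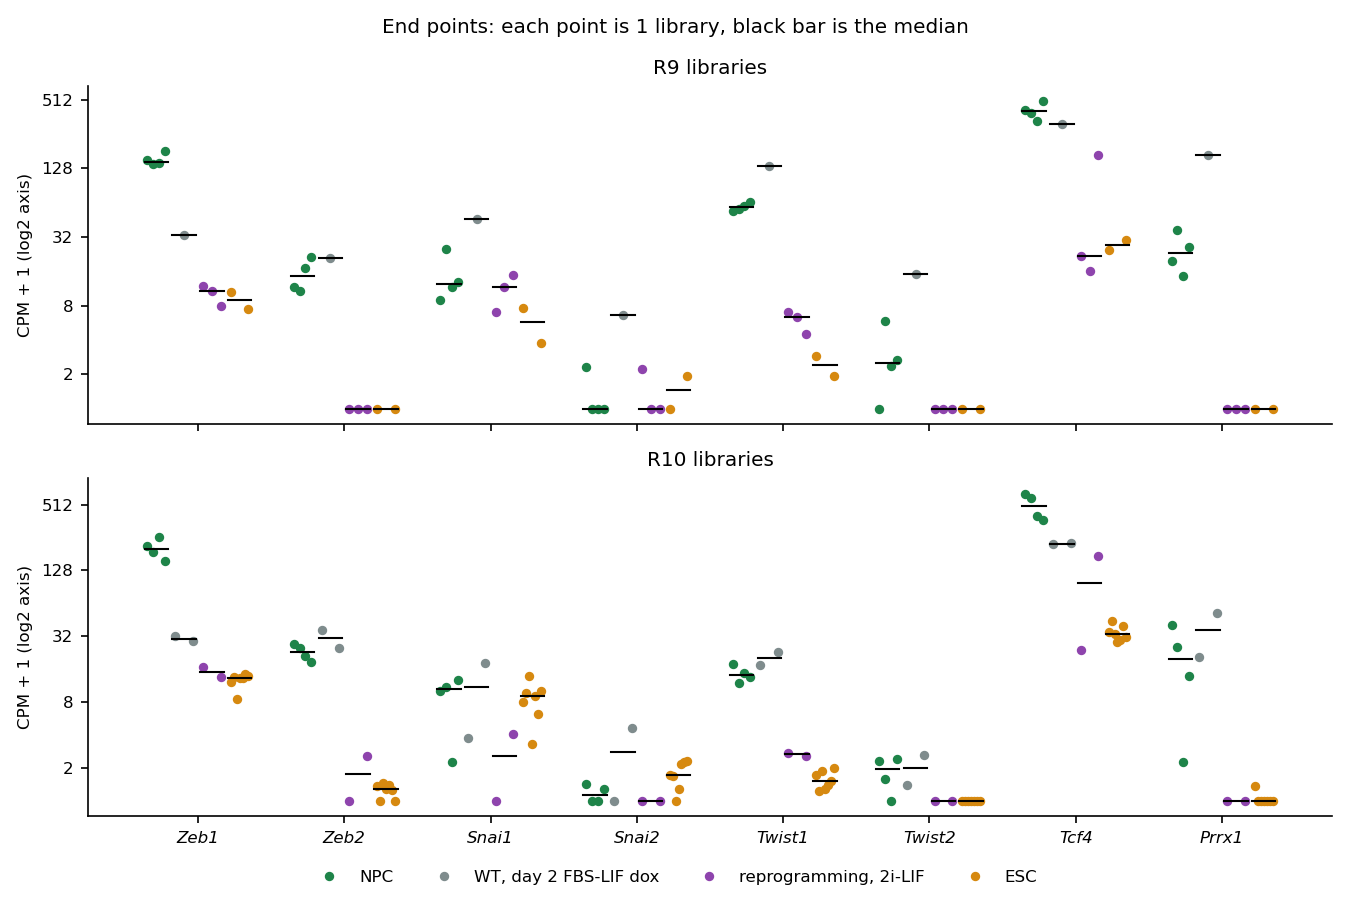
Level of each member as CPM + 1 on a log2 axis, with R9 libraries above and R10 libraries below; each point is 1 library and the black bar is the median of its group (NPC, WT at day 2 in FBS-LIF dox, reprogramming cells in 2i-LIF, ESC). Zeb1, Tcf4, Twist1, Zeb2 and Prrx1 lie higher in NPCs than in ESCs with no overlap, and Snai1 overlaps in R10.

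By summed TPM (transcript levels scaled by length and to a common total), Tcf4 was the highest member in R10 NPCs at 147.26 to 281.95 TPM, above Zeb1 at 72.47 to 117.04 TPM with no overlap. Twist1 (8.7 to 13.52 TPM), Snai1 (0.94 to 9.1 TPM), Zeb2 (3.43 to 10.33 TPM) and Prrx1 (0.25 to 20.21 TPM) overlapped in TPM. On this scale, and in all shares of TPM, a read on a short transcript weighs more than a read on a long one. In CPM, Tcf4 (369.6 to 641.9 CPM) again lay above Zeb1 (156.7 to 257.2 CPM) in R10 NPCs. Zeb2 (17.79 to 26.36 CPM) lay above Twist1 (11.1 to 16.7 CPM) without overlap there, so the order of these members depends on the scale. In R9 NPCs the order was Tcf4 (125.48 to 345.83 TPM), Zeb1 (90.93 to 120.35 TPM) and Twist1 (55.57 to 84.27 TPM), again without overlap between neighbours. Twist1 was thus placed nearer to Zeb1 in R9 than in R10.

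Zeb1 stood at 139.4, 141.4, 149.8 and 182.1 CPM in the R9 NPC libraries and at 156.7, 188.7, 213.1 and 257.2 CPM in the R10 NPC libraries. The ESC libraries held 6.515 and 9.468 CPM in R9 and 7.617 to 13.5 CPM (median 12.39) in R10. No ESC library came near the NPC range. The log2 difference (ESC minus NPC) was -4.0 ± 0.17 (SE; limma adjusted p = 2.35e-11) in R10 and -4.11 ± 0.20 (limma adjusted p = 4.51e-05) in R9, and it did not differ between the chemistries by a test of the difference (0.11 ± 0.29, limma adjusted p = 0.871).

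Zeb1 was already low in wild-type cells that had spent 2 days in FBS-LIF dox without any reprogramming construct. The WT libraries held 28.00 and 30.93 CPM in R10, against 156.7 and 257.2 CPM in their WT NPC libraries, and 32.54 CPM in the single R9 library. In R10 the fall was -2.73 ± 0.29 on the log2 scale (limma adjusted p = 0.00347, n = 2 and 2), and Zeb1 was the only called member of the 7 tested, where 26.8% of all genes were called and 11.9% were called lower. The call was lost when any 1 of the 4 libraries was left out (limma adjusted p = 0.089 to 0.171, log2 difference -3.09 to -2.37). In the same 2 days markers of other neural cells moved too. The 4 astrocyte markers summed to 7053 and 7233 CPM in WT cells against 1190 to 1554 CPM in all R10 NPCs. Of 4 oligodendrocyte precursor markers, 3 had a row and Sox10 had none. The 3 summed to 42.17 and 54.02 CPM against 191.1 to 306.7 CPM. Their part in the Zeb1 difference was not tested.

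With the reprogramming factors Zeb1 followed the same first step. At day 2 OKMS cells held 21.47 CPM in R9 and 33.2 CPM in R10, and OKS cells held 16.04 and 44.03 CPM. These were 15.2%, 15.6%, 8.81% and 23.3% of the day 0 library of the same system and chemistry. The difference between cells with and without factors at day 2 was 0.37 ± 0.43 on the log2 scale in R10 (limma adjusted p = 0.718, n = 2 and 2). None of the 8 members was called in that comparison by limma, edgeR or DESeq2, where limma called 0.740% of all genes. None had an unadjusted limma p under 0.05, where 15.2% of all genes did. The mitochondrial share of reads differed between the same libraries, at 1.51% and 1.64% in OKMS and OKS cells and 0.319% and 0.165% in WT cells at day 2. The R10 NPC libraries differed likewise, at 1.08% and 1.12% for OKMS and OKS and 0.273% and 0.153% for WT, and its part in the comparison was not tested. Among R10 ESCs it was 0.124% in R1 replicate 3 and 1.81% to 2.35% in the other 6. That fit could have missed effects, since on simulated data it recovered 55.5% of genes changed 4-fold.

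After day 2 the Zeb1 level of OKS cells lay above that of OKMS cells on every day with both systems except day 20 in R9, a difference that did not pass the test. OKMS cells went on to 12.52, 8.188, 8.439, 12.66 and 4.925 CPM at days 4, 6, 10, 14 and 20 in R9, and to 10.64, 6.183, 11.03 and 1.484 CPM at days 4, 6, 10 and 18 in R10. The R10 values lie within or below the R10 ESC range, and the R9 values of days 4 and 14 lie above the R9 ESC range. OKS cells stayed at 34.33, 37.49, 40.16 and 36.4 CPM at days 4 to 14 in R9 and reached 3.593 CPM at day 20; in R10 they held 50.34 CPM at day 6 and 28.17 CPM at day 18. The R9 OKS libraries of days 4 to 14, at 18.9% to 22% of day 0, lay above every R9 OKMS library of days 4 to 20. The mean difference of OKMS minus OKS over the 6 R9 days, with day as a block, was -1.04 ± 0.39 (limma adjusted p = 0.0625). It passed without day 2 or without day 20 (-1.33 in each case, limma adjusted p = 0.032 and 0.0154) and did not pass without day 4, 6, 10 or 14. In R10 it did not pass over days 2, 6 and 18 (limma adjusted p = 0.236).

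**Figure D2:**
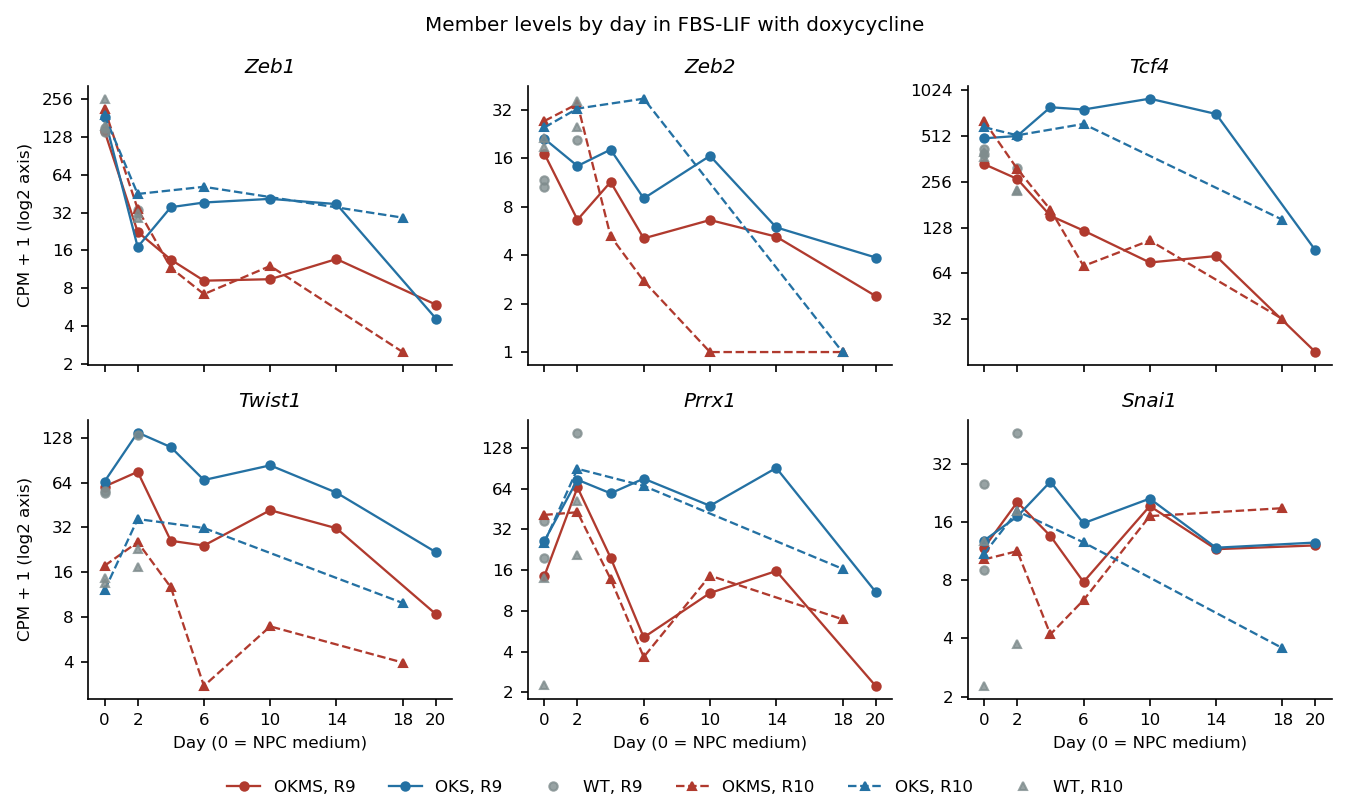
Level of 6 members by day in FBS-LIF dox as CPM + 1 on a log2 axis; red is OKMS, blue OKS, grey WT, circles and solid lines are R9, triangles and dashed lines R10, and day 0 is NPC medium; each point is 1 library. Zeb1 is low in every library at day 2, while Tcf4 stays high in OKS until day 14 and declines from day 2 or 4 in OKMS.

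Against day 0, Zeb1 was the 1 member called over the early R9 days (2, 4 and 6; 5.48% of all genes called, 2.25% lower) with -3.01 ± 0.67 (limma adjusted p = 0.0125, n = 6 and 2). It was also the 1 member called over the late R9 days (10, 14 and 20; 8.17% called, 4.09% lower) with -3.61 ± 0.67 (limma adjusted p = 0.00297). Each call rests on 2 day 0 libraries: without NPC OKMS it was lost in the early days (limma adjusted p = 0.233) and in the late days (0.137), and without NPC OKS likewise (0.164 and 0.0611). In R10 no member was called over the early days by limma (Zeb1 -2.97 ± 0.74, adjusted p = 0.0531, 3.48% of all genes called), while edgeR and DESeq2 each called Zeb1. There 1 member had an unadjusted limma p under 0.05, where 14.9% of all genes did. With OKMS day 2 or OKMS day 18 left out, limma called Zeb1 too (adjusted p = 0.0427 and 0.0327). Over the late R10 days (10 and 18) Zeb1, Zeb2 and Tcf4 were called lower, 3 of 8 members where 11.4% of all genes were called in either direction and 5.29% lower. Zeb2 was at 0 in every late R10 library and could enter the test only through the day 0 and early libraries. The count is thus a description. The 8 neural progenitor markers fell alongside: their sum was 134.1 CPM at day 10 and 25.22 CPM at day 18 in R10 OKMS cells and 71.71 CPM at day 18 in OKS cells, and it was 29.55 to 388.2 CPM over the late R9 days. The part of these markers in the loss of the members was not tested. Zeb1 stood at -4.14 ± 0.81 (limma adjusted p = 0.0092), and all 3 calls were lost without NPC OKMS (adjusted p = 0.298 for Zeb1, 0.331 for Zeb2 and 0.467 for Tcf4). The Tcf4 call (-2.75 ± 0.67, limma adjusted p = 0.0245) was also lost without NPC OKS, OKMS day 18 or OKS day 18 (0.0737, 0.0814 and 0.0682).

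The Zeb1 gene lies on chromosome 18 (5591864 to 5775467 in the deposited mm10 annotation, plus strand). Of its 33 deposited transcripts, 3 made up at least 10% of the Zeb1 TPM in 1 chemistry. The longest, of 3108 bases and 8 exons, matches the annotated messenger RNA and encodes 1027 residues; it made up 6.91% of the Zeb1 TPM in R9 and 10.2% in R10. A 4-exon transcript of 1482 bases made up 29.3% and 23.1%. A 2-exon transcript of 2193 bases without a predicted coding sequence, which begins 175141 bases downstream of the annotated start of the gene, made up 35.7% and 23.2%.

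That 2193-base transcript was listed above 0 in NPCs alone. Its level was 63.0, 50.3, 39.0 and 34.3 TPM in the R9 NPC libraries and 51.9, 32.4, 22.9 and 17.3 TPM in the R10 NPC libraries, and it was listed at 0 in all 37 other libraries, the 3 WT libraries at day 2 included. The summed Zeb1 TPM of those WT libraries was 8.23, 12.46 and 10.34, and the full-length 3108-base form was still listed there at 1.16, 2.47 and 1.85 TPM. In R10 the 2193-base transcript differed by -4.89 ± 0.28 between ESCs and NPCs (limma on log2(TPM + 1), adjusted p = 1.43e-08). In R9 it was the 1 of 97 member transcripts tested that was called over the late days (-5.84 ± 0.58, limma adjusted p = 8.59e-06), where 1.33% of all transcripts tested were called and 1.15% were called lower. This transcript was listed at 0 in every R9 library in FBS-LIF dox. It entered that test only through the day 0 libraries, where it was high, so the call is a description. TPM keeps no depth, so no limit can be set for a value of 0, and a listed 0 does not show that the transcript was absent. All 3 named forms were lower in ESCs in R10: the 2193-base form by -4.89, the 1482-base form by -3.81 and the 3108-base form by -2.61.

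**Figure D3:**
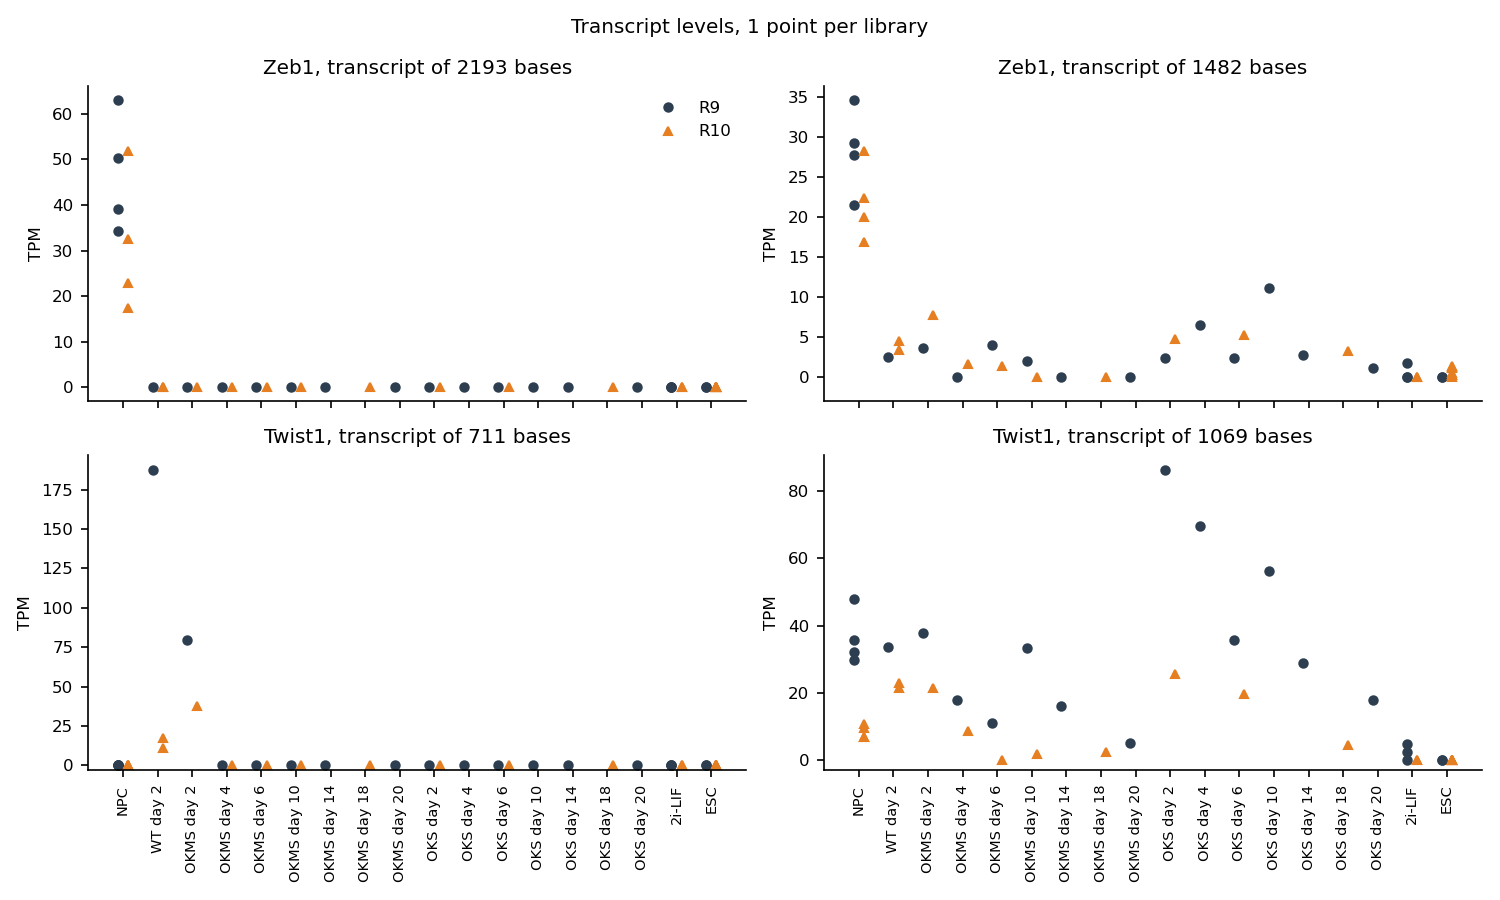
Level in TPM of 2 Zeb1 transcripts (top) and 2 Twist1 transcripts (bottom) by group and day, 1 point per library, circles R9 and triangles R10. The 2193-base Zeb1 transcript is above 0 in the 8 NPC libraries alone, and the 711-base Twist1 transcript is above 0 in the WT and OKMS libraries at day 2 alone.

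The share of Zeb1 TPM in transcripts that start at the annotated 5′ region was 29.9% ± 6.2 (SD, n = 4) in R10 NPCs and 67.1% ± 14.1 (SD, n = 7) in R10 ESCs. The lowest ESC value (48.8%) lay above the highest NPC value (35.7%). This class was defined after the values were seen and is given with no test. In R9 ESCs it held all of the Zeb1 TPM, but that total was 0.66 and 0.67 TPM. The libraries in 2i-LIF did not share the high ESC values: the share was 13.7% and 0% in R10 (OKMS, OKS) and 0%, 20.3% and 27% in R9 (OKMS days 14 and 20, OKS), of totals between 3.07 and 6.55 TPM.

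Zeb2, the second Zeb repressor, had 16.15, 20.24, 10.7 and 9.68 CPM in the R9 NPC libraries (OKMS, OKS and 2 WT) and 26.36, 23.95, 20.33 and 17.79 CPM in R10. It was at 0 in both R9 ESC libraries and at 0 to 0.4481 CPM in the 7 R10 ESC libraries. The R9 NPC mean was at least 10.1-fold higher than the ESC group, whose 0 was set at 3 reads over the group. In R10 the log2 difference was -4.21 ± 0.21 (limma adjusted p = 1.08e-10).

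Unlike Zeb1, Zeb2 was not called lower in WT cells at day 2. These held 24.05 and 35.62 CPM in R10 (log2 difference 0.60 ± 0.32 from WT NPCs, limma adjusted p = 0.206) and 19.81 CPM in R9. At day 2 with factors R10 held 33.99 CPM in OKMS and 31.72 CPM in OKS, both above their day 0 libraries. OKMS cells then dropped to 4.256 CPM at day 4 and 1.766 CPM at day 6 and were at 0 at days 10 and 18. OKS cells still held 36.69 CPM at day 6, or 153% of day 0, and were at 0 at day 18. The R9 series ran from 5.65 CPM at day 2 through 10.43, 4.094, 5.626 and 4.221 CPM to 1.231 CPM at day 20 in OKMS, and from 13.37 CPM through 17.17, 8.033, 15.62 and 4.963 CPM to 2.874 CPM in OKS. In R9 the OKS library was higher on each of the 6 days, with a mean log2 difference (OKMS minus OKS) of -0.82 ± 0.36 (limma adjusted p = 0.106). The late R10 fall was -4.53 ± 1.00 (limma adjusted p = 0.016), and was lost without OKS day 18 (0.0635) or NPC OKS (0.091); the late R9 difference was -1.78 ± 0.62 (limma adjusted p = 0.094), and it passed without OKS day 10 (-2.04, adjusted p = 0.0319).

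The Zeb2 gene lies on chromosome 2 (44987121 to 45117502, minus strand, mm10). Its named transcripts are short non-coding forms at the 5′ end, with shares pooled over all libraries of a chemistry: a 595-base form of 2 exons (45116410 to 45117502) made up 50.5% in R9 and 45.2% in R10, and a 469-base form made up 11.3% and 8.17%. As TPM is scaled by length, reads on these short forms weigh more in the shares than reads on long forms. By group, the 2 forms together held 40.9% of the Zeb2 TPM of the R10 NPC libraries, 34.6% of that in FBS-LIF dox with factors and 76.2% of that of the R10 WT libraries at day 2; in R9 they held 58.6%, 53.4% and 86.8%. The 469-base form was above 0 in 1 of 22 R9 libraries (NPC OKS, 8.40 TPM) and in 3 of 23 R10 libraries. The 595-base form was above 0 in 12 of the 45 libraries. It was at 22.6 and 9.66 TPM in the R10 WT libraries at day 2 against 0 to 3.11 TPM in R10 NPCs, and at 12.1 TPM in the R9 WT library at day 2 against 9.88 TPM in R9 NPC OKMS and 0 in the other R9 NPC libraries. These short forms hold neither the last exon nor the miR-200 matches shown above. Another 11 transcripts end in the 3′ part of the gene. The position that sets this class lies upstream of the last exon, so these transcripts need not reach that exon. They held 36.3% of the summed Zeb2 TPM of the R10 NPC libraries and 17.7% of that of the R10 WT libraries at day 2. Single libraries held 12.9% to 53.7% and 12.7% to 27.7%, which overlap. No Zeb2 transcript passed the filter in R10 for a test of ESCs against NPCs.

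The region in which the 595-base form starts is shown because this form had the largest share of pooled Zeb2 TPM in both chemistries. That share leans on WT cells at day 2: without their libraries it was 25.9% in R10 and 42.1% in R9, still the first in rank, a setting added after seeing the data. The window runs from 250 bases before to 50 bases after a RefSeq start (GRCm38.p6, minus strand) that lies downstream of the 5′ end of the 595-base form (45117502), and the 2 sequences CACCTG and CAGGTG, each the reverse complement of the other and the core of the E-box that the Snail and Zeb repressors read, did not occur in it.
Zeb2 promoter at chr2:45117393-45117692: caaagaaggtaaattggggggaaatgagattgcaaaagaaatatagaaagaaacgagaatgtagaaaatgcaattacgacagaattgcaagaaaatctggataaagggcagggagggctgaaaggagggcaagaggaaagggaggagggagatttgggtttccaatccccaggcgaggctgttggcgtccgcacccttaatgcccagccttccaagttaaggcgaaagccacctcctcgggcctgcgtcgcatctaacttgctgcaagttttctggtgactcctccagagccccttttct
Across the genome, 20.21% of 32851 RefSeq promoter windows of this length hold at least 1 match on either strand. The other 3 Zeb2 windows and those of Twist1, Twist2 and Prrx1 had none, and the Snai1 window had 1.

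Zeb2os, a gene antisense to Zeb2 (chromosome 2, 45110069 to 45114090, plus strand), was at 1.906 to 5.712 CPM in R10 NPCs and at 6.589 and 11.74 CPM in WT cells at day 2, where it was called higher (1.67 on the log2 scale, limma adjusted p = 0.0403). Its level was 11.32 CPM in the R9 WT library at day 2, and it was at 0 in all 5 libraries in 2i-LIF. Whether the deposited counting used strand is not given in the sources used here, so reads of Zeb2 and Zeb2os may not be fully separated.

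Snai1, a Snail repressor that acts early in most epithelial-to-mesenchymal transitions, had the smallest difference between the end points among the 6 members tested in R10. It stood at 9.226, 9.931, 1.27 and 11.76 CPM in the R10 NPC libraries and at 2.32 to 12.99 CPM (median 8.133) in R10 ESCs, with overlapping ranges and a log2 difference of 0.09 ± 0.45 (limma adjusted p = 0.876). In R9 it was 8.024 to 24.2 CPM in NPCs and 2.792 and 6.628 CPM in ESCs, which do not overlap, but the difference of -1.34 ± 0.51 did not pass (limma adjusted p = 0.0769). The test of whether the change differs between the chemistries gave 1.42 ± 0.74 (limma adjusted p = 0.274).

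Along the path Snai1 had no single direction. In R9 its lowest and highest FBS-LIF dox values were 6.823 CPM (day 6) and 19.21 CPM (day 2) in OKMS, and 10.75 CPM (day 14) and 24.79 CPM (day 4) in OKS. In R10 OKMS was at 3.192 CPM at day 4 and 17.81 CPM at day 18, and OKS went from 17.17 CPM at day 2 to 2.561 CPM at day 18. WT cells at day 2 ranged from 2.74 CPM to 17.13 CPM in R10 and held 45.27 CPM in R9. The 2 R10 WT libraries of replicate number 2, NPC and day 2, held the lowest Snai1 of their groups.

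Nearly all Snai1 TPM (98.6% in R9, 98.7% in R10) was in a single 4-exon transcript of 2023 bases that encodes 264 residues. It starts at position 167525144 of chromosome 2, which is 13051 bases upstream of the annotated Snai1 start (167538195, plus strand, mm10). Its second exon contains the whole RefSeq promoter window of Snai1, which is printed for that reason, with its single E-box match in capitals.
Snai1 promoter at chr2:167537945-167538244: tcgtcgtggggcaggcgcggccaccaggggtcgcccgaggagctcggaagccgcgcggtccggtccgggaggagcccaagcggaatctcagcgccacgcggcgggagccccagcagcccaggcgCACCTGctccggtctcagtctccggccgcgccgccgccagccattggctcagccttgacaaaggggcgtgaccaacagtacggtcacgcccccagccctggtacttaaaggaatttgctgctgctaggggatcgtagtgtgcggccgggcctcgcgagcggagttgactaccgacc
The match is a description of the letters and was not tested as a binding site. Transcript models near this start were built by the authors, and reads of a shorter Snai1 RNA could be placed in the longer model, which was not tested.

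Snai2, the Slug repressor of neural crest and mesenchyme, was close to the counting limit. R10 NPCs held 0.4394, 0, 0 and 0.2869 CPM, and R10 ESCs 0 to 1.313 CPM. Its highest R10 values were in OKS cells, 4.478 CPM at day 2 and 5.973 CPM at day 6, and in 1 of the 2 WT libraries at day 2 (3.624 CPM, the other at 0). In R9 the WT library at day 2 was the highest at 5.659 CPM, and no OKS library exceeded 1.339 CPM. Its 3 transcripts, of 2297, 1581 and 1241 bases, share the annotated exons and encode 269 residues each.

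Twist1, the helix-loop-helix factor of cranial mesenchyme, was 59.23, 64.08, 53.5 and 55.18 CPM in R9 NPCs and 16.70, 11.10, 13.66 and 12.62 CPM in R10 NPCs. ESCs held 0.9307 and 1.894 CPM in R9 and 0.2355 to 0.9844 CPM in R10. The log2 difference was -4.64 ± 0.24 in R9 (limma adjusted p = 5.31e-05) and -3.21 ± 0.22 in R10 (limma adjusted p = 3.64e-09). In the test of the difference between chemistries, Twist1 was the 1 member of 8 that passed. The share of all 16527 genes tested that passed was not counted, so that count is a description. On the log2(CPM + 1) scale the Twist1 change was smaller in R10 by 1.43 ± 0.39 (limma adjusted p = 0.043). ESC levels near 1 CPM make this value depend on the added 1: with a pseudocount of 0.25 the difference was 1.07 ± 0.54 (limma adjusted p = 0.27), and in edgeR it was 0.75 (adjusted p = 0.86). Both settings were chosen after seeing the data.

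At day 2 Twist1 stood above day 0 in every system. In R9 the WT library held 133 CPM, OKMS 74.59 CPM and OKS 137.7 CPM; in R10 the WT libraries held 16.44 and 22.07 CPM, OKMS 24.5 CPM and OKS 35.45 CPM. In R10 WT cells the difference from NPCs did not pass (0.51 ± 0.33, limma adjusted p = 0.289), and the single libraries have no test of their own. OKMS cells were at 25.04, 23.2, 40.79, 30.6 and 7.388 CPM from day 4 to day 20 in R9, and OKS cells at 109.7, 65.6, 82.54, 53.77 and 20.84 CPM. OKS was higher on all 6 days, with a log2 difference of -1.27 ± 0.22 (OKMS minus OKS, limma adjusted p = 0.00191). In R10 OKMS was at 1.766 CPM at day 6 against 30.72 CPM in OKS, and at 2.968 against 8.963 CPM at day 18.

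The Twist1 gene lies on chromosome 12 (33957615 to 33959828, plus strand, mm10) and had 7 deposited transcripts. The annotated messenger RNA of 1683 bases, which encodes 206 residues, made up 17.2% of the Twist1 TPM in R9 and 7.10% in R10. A 3-exon form of 1069 bases with an unannotated splice site, which encodes 91 residues, made up 39.8% and 59.4%, and in R10 it was lower in ESCs (-3.22 ± 0.21, limma adjusted p = 5.92e-08).

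A 2-exon Twist1 form of 711 bases without a predicted coding sequence (33958571 to 33959828) was listed above 0 at day 2 alone. It reached 187.5 TPM in the R9 WT library, 79.4 TPM in R9 OKMS, 10.8 and 17.2 TPM in the R10 WT libraries and 37.8 TPM in R10 OKMS. It was listed at 0 in the 8 NPC libraries, in both OKS libraries at day 2, and in all other libraries. It was 0 at day 2 in OKS although the summed Twist1 TPM there was 212.75 in R9 and 30.54 in R10. It was thus listed above 0 in WT and OKMS cells in both chemistries, and a listed 0 does not show that it was absent elsewhere.

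Twist2 was low throughout. R9 NPCs held 1.346, 1.686, 0 and 4.84 CPM, and R10 NPCs 1.318, 0.5842, 0 and 1.435 CPM. It was at 0 in all 9 ESC libraries and in all 5 libraries in 2i-LIF. The R10 NPC mean was at least 6.13-fold higher than the ESC group (3 reads over the group). In R9 it was 10.17, 4.173 and 1.365 CPM at days 2, 4 and 6 in OKMS and 0 from day 10, and in OKS it was 5.348, 14.3 and 12.05 CPM at those days and 6.467 CPM at day 20. The difference of OKMS minus OKS was -1.60 ± 0.50 (limma adjusted p = 0.0305), a call that was lost when any 1 of days 4, 6, 10, 14 and 20 was left out (limma adjusted p up to 0.103). From NPCs to ESCs in R9 its difference was called only without NPC WT replicate 1 (-1.73, limma adjusted p = 0.0286).

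Tcf4, the E protein that pairs with Twist factors and with proneural factors, had the largest difference between OKMS and OKS among the members in R9. NPCs held 333.9, 494.1, 417.3 and 392.0 CPM in R9 and 641.9, 584.8, 398.9 and 369.6 CPM in R10. ESCs held 23.67 and 28.85 CPM in R9 and 27.55 to 43.34 CPM (median 32.26) in R10, with no overlap. The log2 difference was -3.83 ± 0.17 in R10 (limma adjusted p = 3.18e-11) and -3.90 ± 0.18 in R9 (limma adjusted p = 4.16e-05).

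In OKMS cells Tcf4 went from 333.9 CPM at day 0 to 266.7, 152.3, 121.5, 74.55, 82.3 and 18.47 CPM at days 2 to 20 in R9, and from 641.9 CPM to 310.6, 167.1, 70.66, 104.4 and 31.16 CPM at days 2 to 18 in R10. In OKS cells it was 512.1, 791.5, 764.4, 901.3 and 714.7 CPM at days 2 to 14 in R9, above its day 0 level of 494.1 CPM, and 89.82 CPM at day 20. The R10 OKS libraries held 517.2 CPM at day 2, 614.4 CPM at day 6 and 143.4 CPM at day 18. At day 10 the R9 OKS library stood at 182% of day 0 and the OKMS library at 22.3%. The mean difference of OKMS minus OKS over the R9 days was -2.48 ± 0.27 (limma adjusted p = 3.9e-04), with OKS higher on all 6 days.

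For Tcf4, WT cells at day 2 held 223.5 and 225.3 CPM in R10 (log2 difference -0.77 ± 0.20 from WT NPCs, limma adjusted p = 0.0365, smaller than the size required for a call) and 315.5 CPM in R9. In 2i-LIF the systems stayed apart: OKMS cells held 20.76 CPM (day 14) and 15.05 CPM (day 20) in R9 and 22.92 CPM in R10, below every ESC library of the same chemistry, and OKS cells held 167.6 CPM in R9 and 172.1 CPM in R10, above every ESC library. With 1 OKS library in 2i-LIF per chemistry this has no replicate test of its own. The R10 comparison of both 2i-LIF libraries with ESCs gave 0.92 ± 0.51 (limma adjusted p = 0.217), and without the OKMS library it gave 2.35 (limma adjusted p = 0.0015), where the lone OKS library is assumed to vary like the ESC libraries.

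The Tcf4 gene lies on chromosome 18 (69344095 to 69701309, plus strand, mm10) and had 133 deposited transcripts. In R10, 26 passed the filter, 19 of them were lower in ESCs and 2 were higher, where 16.4% of all transcripts tested were called lower and 23.4% higher. As with the genes, a transcript that was near 0 in ESCs could enter only through the NPC group, where it was high, so the count is a description, and the same holds for the Zeb1 and Twist1 transcripts above. A 13-exon form of 2448 bases that encodes 507 residues, from an annotated internal start 249455 bases into the gene, was 48.43, 59.62, 36.35 and 32.38 TPM in R10 NPCs and 0.19 to 0.61 TPM in ESCs (-4.93 ± 0.23, limma adjusted p = 2.45e-09). In OKS cells it was still at 37.91 TPM at day 2 and 54.89 TPM at day 6, and it was at 3.94 TPM at day 18; in OKMS cells it went from 19.63 TPM at day 2 to 2.38 TPM at day 6 and was listed at 0 at day 18. The 2 forms called higher in ESCs are 3′ fragments of 651 and 691 bases at a mean of 2.28 and 2.43 TPM there, and both were listed at 0 in the R10 NPC libraries. A 3′ fragment of 933 bases (22.5% of Tcf4 TPM in R9, 4.63% in R10) and a 2-exon form of 1686 bases without a predicted coding sequence (4.31% and 11.9%) were lower in R10 ESCs, by -1.28 ± 0.29 and -3.29 ± 0.47 (limma adjusted p = 0.00262 and 7.46e-05).

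Transcripts that start in the cluster of internal starts around that of the 2448-base form made up 47.2% ± 4.1 (SD, n = 4) of Tcf4 TPM in R10 NPCs, with 43.8% to 52.5% in single libraries. In R10 ESCs they made up 9.16% ± 2.13 (SD, n = 7), with 5.49% to 12.3%. Transcripts that start further downstream, most of them 3′ fragments, made up 35.4% ± 7.5 and 78.8% ± 4.4. Those that start upstream of the cluster, in the long forms, made up 17.4% ± 3.7 and 12.1% ± 4.4, and these ranges overlap. R9 NPCs had 28.5% ± 11.5 (SD, n = 4, 11.3% to 35.6%) in the internal cluster and the 2 R9 ESC libraries 0% and 7.71%. The classes were set after the values were seen and carry no test, and a 3′ fragment can also come from a read that stopped short of the 5′ end.

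**Figure D4:**
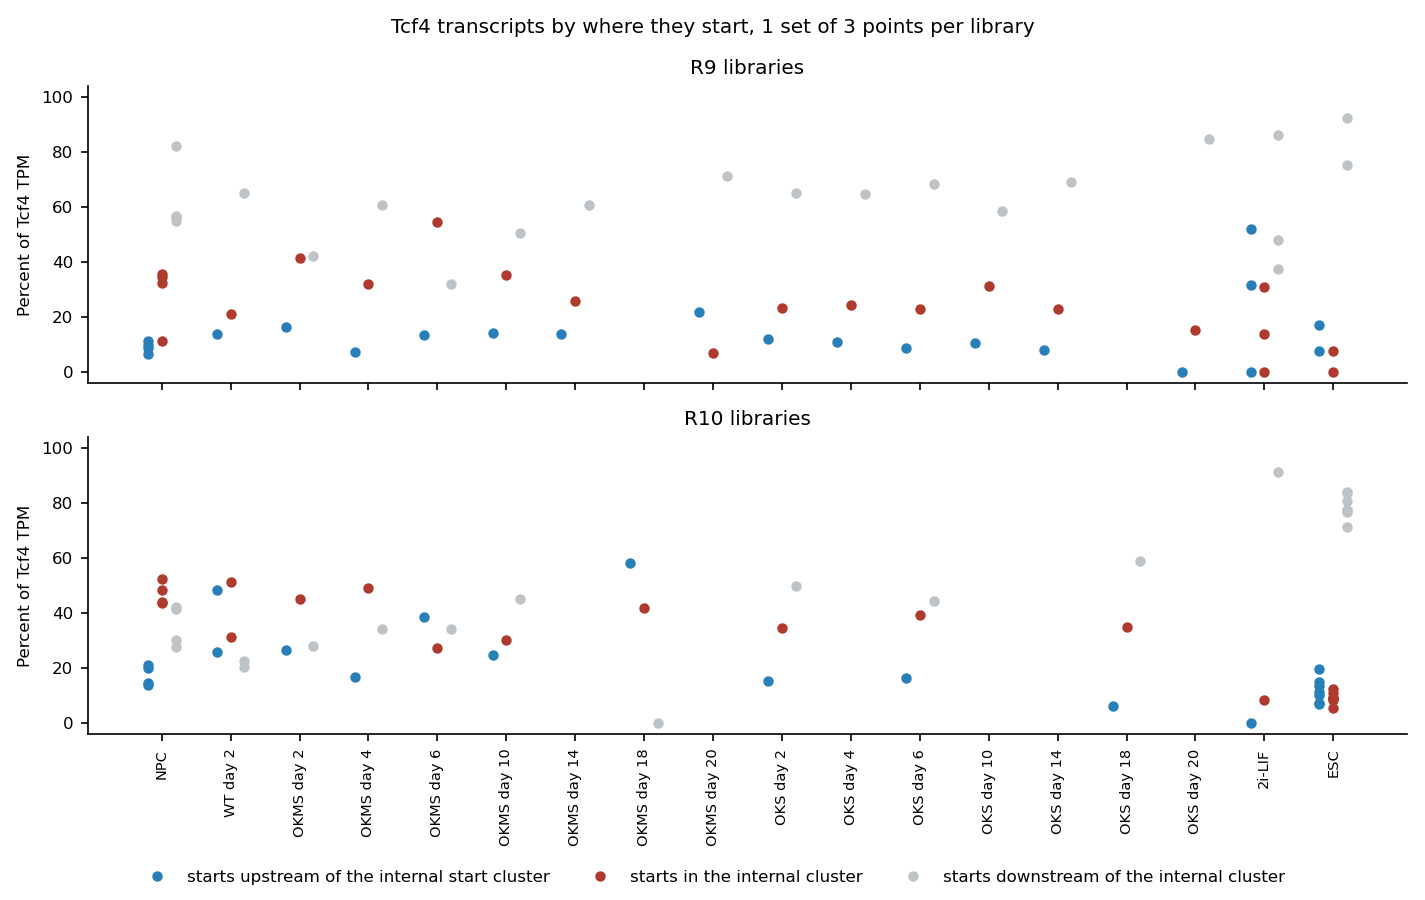
Percent of the summed Tcf4 TPM by where transcripts start, for R9 (top) and R10 (bottom) libraries in each group and day; red is the internal start cluster, blue upstream of it, grey downstream, and the 3 points of a library sum to 100. In R10 the red points lie at 43.8% to 52.5% in NPCs and at 5.49% to 12.3% in ESCs.

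A 3′ fragment of 871 bases, named here after its values were seen, had 71.7 of the 106.49 Tcf4 TPM in the R10 OKS library in 2i-LIF and 19.4 TPM in the R10 OKS library of day 18 in FBS-LIF dox. It was at 9.44 TPM or less in all other libraries and was listed at 0 in the R9 OKS library in 2i-LIF, whose Tcf4 CPM was as high. In the R10 OKMS library in 2i-LIF all Tcf4 transcripts were listed at 0 while the gene had 22.92 CPM, so an exact 0 in the transcript table does not mean that no read fell on the gene. A gene antisense to the 3′ region of Tcf4 (69675465 to 69687679, minus strand), named novelGene_Tcf4_AS in the files, had at most 10.75 CPM, in R9 OKS at day 14.

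Prrx1, the homeobox factor of limb and facial mesenchyme, varied widely among NPC libraries. It was 13.46, 25.29, 18.72 and 35.82 CPM in R9 and 39.98, 24.54, 1.27 and 12.91 CPM in R10. It was at 0 in both R9 ESC libraries and in 6 of 7 R10 ESC libraries, the seventh holding 1 read (0.3734 CPM). The R9 NPC mean was at least 16.5-fold higher than the ESC group (3 reads over the group), and the R10 log2 difference was -3.69 ± 0.54 (limma adjusted p = 2.02e-05). The R10 NPC library with the lowest Prrx1, WT replicate 2, also had the lowest Snai1.

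WT cells at day 2 held 19.57 and 51.06 CPM in R10, each higher than the WT NPC library of its own replicate number (1.27 and 12.91 CPM), and 165.5 CPM in R9, the highest Prrx1 value of all 45 libraries. The R10 difference was 2.54 ± 0.93 (limma adjusted p = 0.0921). With replicate number as a block Prrx1 was called (2.54, limma adjusted p = 1.95e-05), and DESeq2 called it without the block (2.25, adjusted p = 0.0256) while edgeR did not (adjusted p = 0.125). Fibroblast markers summed to 256.1 CPM in the R9 WT library and to 42.28 and 152.9 CPM in the R10 WT libraries. The R9 NPC libraries reached 212.6 CPM and the R10 NPC libraries 135 CPM, so the lower R10 WT library lay within the NPC range. Cells with factors in FBS-LIF dox overlapped the NPC range in both chemistries. The part of these markers in the Prrx1 values was not tested. In OKMS cells Prrx1 was 64.41, 18.78, 4.094, 9.846, 14.77 and 1.231 CPM at days 2, 4, 6, 10, 14 and 20 in R9, with day 14 above the 13.46 CPM of the OKMS NPC library, and 41.89, 12.77, 2.65, 13.58 and 5.935 CPM at days 2 to 18 in R10. In OKS cells it stayed at 46.85 to 90.16 CPM through day 14 and was 10.06 CPM at day 20 in R9, and it was 88.82, 66.13 and 15.37 CPM in R10. The R9 difference of OKMS minus OKS was -2.11 ± 0.38 (limma adjusted p = 0.00227), with OKS higher on all 6 days. The gene lies on chromosome 1 (163245099 to 163314446, minus strand, mm10); of its 24 transcripts, forms of 1695 and 1057 bases that encode 217 and 242 residues made up 20.5% and 17.5% of its TPM in R9 and 21.3% and 35.1% in R10. Forms of 798 and 1892 bases made up 16.3% and 10.2% in R9 and 5.04% and 4.38% in R10.

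The timing of loss can be read from the first day after which a member stayed under 50% of its own day 0 library in FBS-LIF dox. Zeb1 had reached it by day 2 in OKMS and OKS in both chemistries. For Zeb2 it was day 6 in OKMS and day 14 in OKS in R9, and day 4 and day 18 in R10. For Tcf4 it was day 4 and day 20 in R9, and day 2 and day 18 in R10. At this limit OKMS came first in each of these 4 pairs. Twist1 and Prrx1 reached it at day 20 in both systems in R9; in R10 OKMS reached it at day 6 and day 4, and OKS had not reached it by day 18. Snai1 reached it in R10 OKS at day 18 and not in R10 OKMS; in R9 its day 0 libraries held under 10 reads and no day was given. These days come from 1 library each and depend on the limit: under 25% of day 0 instead of 50%, Zeb2 in R9 OKMS moved to day 20 while OKS stayed at day 14, which turns their order around. Zeb1 in R10 OKS moved to day 18, and Tcf4 in OKMS moved to day 10 in R9 and day 6 in R10, still before OKS. Twist1 and Prrx1 moved to day 18 in R10 OKMS and were no longer reached in R9 OKS, and Snai1 was no longer reached in R10 OKS. Against the mean of the 4 NPC libraries, at 50%, Tcf4 in R10 OKMS moved to day 4 and Prrx1 in R10 OKMS to day 18. R10 OKS had no library between days 6 and 18, so day 18 there means a day after day 6 and no later than day 18. In R9 the day 0 libraries of OKMS and OKS held 12 Zeb2 reads each, so its R9 days rest on few reads.

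The comparison of OKMS with OKS addressed whether levels differ between the factor set with c-Myc and the set without it. An effect of c-Myc cannot be told apart from other differences between the transfected NPCs of each system. The days of a system stood in as its replicates. Over the 6 days of R9, with day as a block, Tcf4, Prrx1, Twist1 and Twist2 were called lower in OKMS. These were 4 of 8 members, where 11% of all genes were called lower and 18% in either direction. Twist2 was at 0 in OKMS from day 10 and could enter the test only through the OKS libraries, so the count is a description. Other values moved with the system in the same libraries. The mitochondrial share of reads was higher in OKS on days 2, 4, 6, 10 and 14 (0.99% against 0.431% at day 10) and lower at day 20 (0.387% against 0.43%), and the summed neural progenitor markers were higher in OKS on all 6 days (774.3 against 298.4 CPM at day 4). Their part in the calls was not tested. This fit left out day 0, where OKS already stood above OKMS in R9 for the 4 called members. There Tcf4 was 494.1 against 333.9 CPM, Prrx1 25.29 against 13.46 CPM and Twist1 64.08 against 59.23 CPM, and Twist2 had 1 read in each. In R10 OKMS stood above OKS at day 0 for the same 4 members. edgeR called Zeb1 in place of Twist2, and DESeq2 called neither. On simulated data this fit recovered 94.5% of genes changed 4-fold, among genes above a minimum mean level that Snai2 and Twist2 did not reach. In R10 both systems shared days 2, 6 and 18, and there 0 of 15135 genes were called by limma, 0 by edgeR and 349 by DESeq2, with Tcf4 among them. In that limma fit 4 members had an unadjusted p under 0.05, where 15.8% of all genes did. These were Tcf4 (-2.0 ± 0.46), Zeb1 (-2.26 ± 0.64), Prrx1 (-2.17 ± 0.65) and Twist1 (-1.79 ± 0.65), with limma adjusted p of 0.235 to 0.266. This R10 fit was added after the data had been seen. Without day as a block no member was called in R9.

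Whether the late change from day 0 itself differed between the systems was tested in R9 with an interaction term. No member and no gene was called by limma, edgeR or DESeq2, no member had an unadjusted p under 0.05, and 4.22% of all genes did. With 1 day 0 library per system this fit recovered 2% of genes changed 4-fold in simulated data, so it could not have shown a difference of that size. Between the early and the late R9 days no member was called by limma, edgeR or DESeq2 (1.85% of all genes called by limma). There 2 members had an unadjusted limma p under 0.05, where 22.9% of all genes did. These were Twist2 (-1.84 ± 0.49, limma adjusted p = 0.0586) and Tcf4 (-1.29 ± 0.53, limma adjusted p = 0.163). Both were called without OKS day 10 (limma adjusted p = 0.0344 and 0.0387), and Twist2 also without OKMS day 6 (0.0467).

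**Figure D5:**
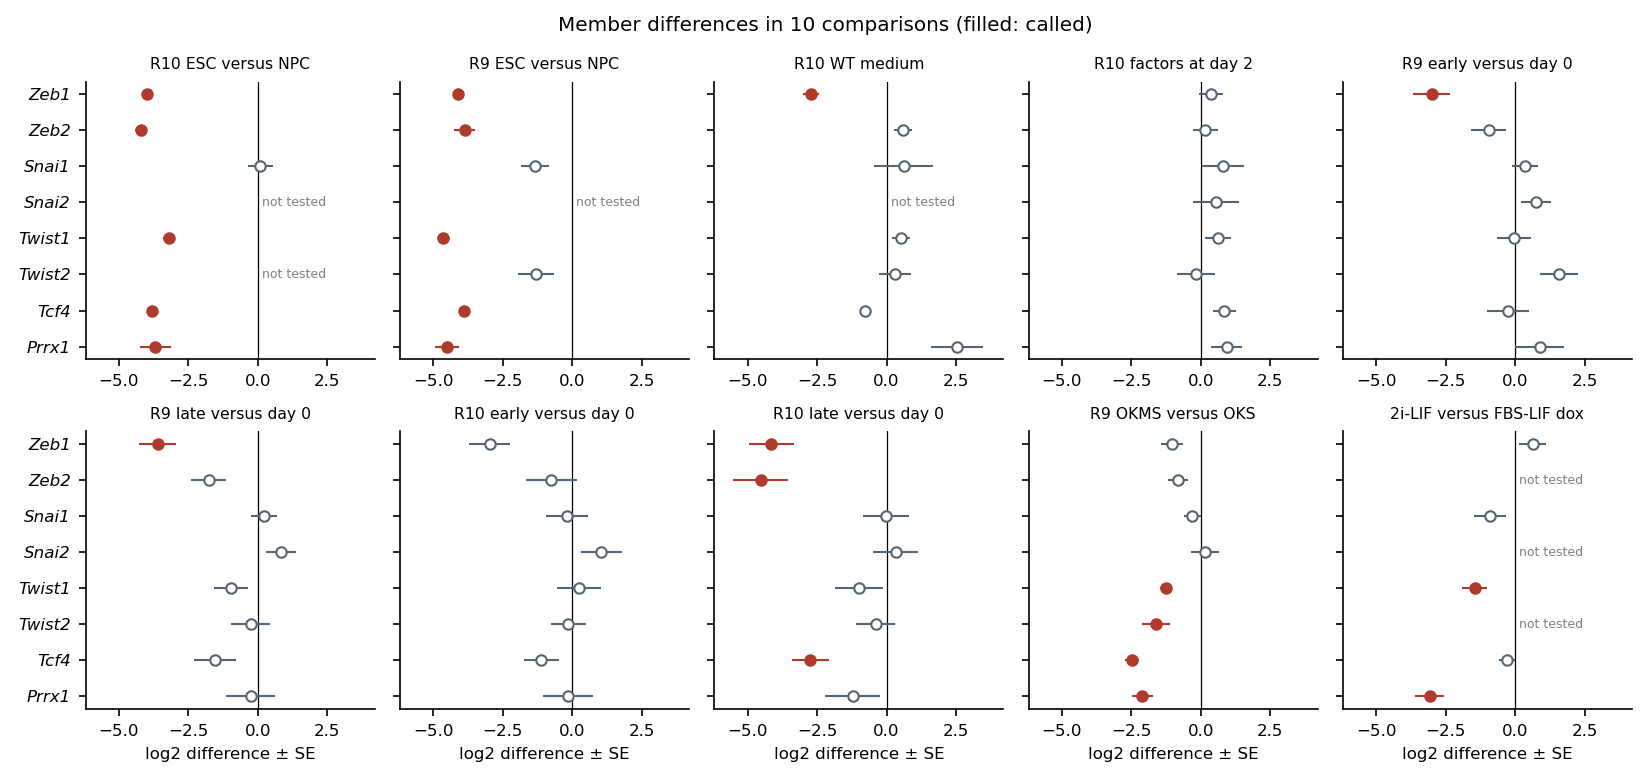
Log2 difference of each member with its standard error in 10 comparisons, first group minus second; filled red points were called and open points were not. Zeb1 is the 1 member called in the WT medium comparison, and Tcf4, Prrx1, Twist1 and Twist2 are called in OKMS versus OKS.

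Cells in 2i-LIF were compared with cells of the same system, day and chemistry that had stayed in FBS-LIF dox, in 5 pairs. Prrx1 and Twist1 were lower in 2i-LIF, 2 of 5 members tested, where 6.32% of all genes were called lower and 12.3% in either direction. Prrx1, at 0 in 2i-LIF, could enter the test only through the FBS-LIF dox libraries, so this count is a description. Prrx1 was at 0 in all 5 libraries in 2i-LIF and at 14.77, 1.231, 10.06, 5.935 and 15.37 CPM in their FBS-LIF dox partners (-3.09 ± 0.52, limma adjusted p = 5.9e-04). Twist1 was at 6.107, 5.374, 3.492, 1.763 and 1.564 CPM in 2i-LIF and at 30.6, 7.388, 20.84, 2.968 and 8.963 CPM in the partners. It was lower in 5 of 5 pairs (-1.46 ± 0.46, limma adjusted p = 0.0391), and the call was lost without the R9 OKMS day 14, the R9 OKS day 20 or the R10 OKS pair (adjusted p = 0.116 to 0.182). Zeb1 did not pass (0.62 ± 0.49, limma adjusted p = 0.457), with 9.674 against 4.925 CPM, 6.983 against 3.593 CPM and 15.87 against 1.484 CPM in 3 pairs and lower values in 2i-LIF in the other 2.

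Against ESCs, the R10 libraries of day 18 in FBS-LIF dox were still higher in Prrx1 (3.41 ± 0.33, limma adjusted p = 5.36e-05) and Twist1 (2.04 ± 0.38, limma adjusted p = 0.00274), 2 of 6 members tested, where 24% of all genes were called and 11.1% were called higher. Prrx1 was at 0 in the 6 ESC libraries and could enter the test only through the day 18 libraries, so this count too is a description. edgeR called Prrx1, Twist1 and Tcf4, and DESeq2 called Twist1 and Tcf4 but not Prrx1 (adjusted p = 0.0782). Without the OKMS library Zeb1 (1.21) and Tcf4 (2.09) were called higher as well, and without the OKS library Zeb1 was called lower (-2.35). Each of these sets 1 library of 1 system against 6 ESC libraries and assumes that it varies like them, so it has no replicate check. In 2i-LIF at day 18, Snai1 was called lower than in ESCs (0 and 3.128 CPM; -1.98 ± 0.58, limma adjusted p = 0.0337), 1 of 5 members tested where 12.2% of all genes were called and 6.59% lower. That call was lost when the OKMS library was left out (limma adjusted p = 0.352), or O4G replicate 1, O4G replicate 2, R1-Clone3 replicate 2 or R1 replicate 2 of the ESCs (0.052 to 0.0637). edgeR called Tcf4 instead. These comparisons set 2 day 18 libraries of different systems against the 6 ESC libraries with an n number in their labels. In simulated data they made 117 and 193 false calls besides those recovered, so single calls in them are weak.

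The genes whose course was most like that of a member were found by Pearson correlation of log2(CPM + 1), taking the lower of the value over the 22 R9 and the 23 R10 libraries, among 11584 genes with a mean of at least 5 CPM. These libraries share the difference between NPCs and pluripotent cells, so high values are common and are given as a description. Zeb1 was most like Olig2 (0.93), a transcription factor of oligodendrocyte and motor neuron progenitors, 1700025G04Rik (0.92) and Ptprz1 (0.92), a receptor phosphatase of neural progenitors and glia. Zeb2 was most like Nfia, Mfhas1 and Sox9 (0.93 each), of which Nfia and Sox9 are factors of gliogenesis. Tcf4 was most like Dclk1 (0.93), Rbms3 (0.92) and Gab2 (0.92). Twist1 was most like Pmp22 (0.97), a myelin and mesenchymal membrane protein, Selenop (0.96) and Wls (0.95), which carries Wnt proteins to the surface. Prrx1 was most like Pmp22, Sqor and Tmsb4x (0.95 each). Snai1 had no gene above 0.67 (Cd151, then Lpar6 at 0.62 and Insig2 at 0.61).

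Genes of the pathways around the members were followed from lists of names, which were set with earlier results of these data known. Among 19 epithelial genes tested, 18 were higher in R10 ESCs than in NPCs and none was lower (median log2 difference 2.53 against 0.01 over all genes), where 45.8% of all genes were called in either direction. A gene near 0 in NPCs could enter this test only through the ESC group, where it was high, so the count is a description. Cdh1, which encodes E-cadherin, rose from 0.768 to 136 CPM (6.38 ± 0.31, limma adjusted p = 8.77e-11), and Cldn4, Epcam and St14 rose by 5.87, 5.64 and 5.5. No epithelial gene was called in WT cells at day 2 (2 tested), where Zeb1 had already fallen and Cdh1 was at 0 in all 4 libraries. In R9 OKMS cells 7 of 16 epithelial genes tested were higher than in OKS cells and none was lower (median 2.06 against -0.11), where 18% of all genes were called in either direction, Cdh1 by 3.54 ± 0.70 (limma adjusted p = 0.0036). A gene near 0 in OKS cells could enter only through the OKMS libraries, so this count too is a description. In 2i-LIF 10 of 20 epithelial genes were lower than in FBS-LIF dox and none was higher, where 6.32% of all genes were called lower.

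Of 14 mesenchymal effector genes tested, 8 were lower and 5 higher in R10 ESCs than in NPCs (median -1.47), where 45.8% of all genes were called and 23.5% were called lower. Cdh2, or N-cadherin, fell by 5.44, the matrix protease Mmp2 by 5.03, and Loxl2 by 3.74, and Col3a1 was also lower, while Fn1, Col1a1, Pdgfrb, Itgb3 and Timp1 were higher. In R10 WT cells at day 2, 9 of 15 tested were higher and none was lower (median 2.12 against 0.12), where 26.8% of all genes were called in either direction, Cdh2 by 1.05 ± 0.23 (limma adjusted p = 0.0227). In R9, 9 of 17 were lower in OKMS than in OKS and none was higher, where 11% of all genes were called lower, Cdh2 by -2.07 ± 0.38 (limma adjusted p = 0.00264). As for the members, a gene barely detected in the lower group could enter these tests only through the higher group. These counts and those of the lists below are thus descriptions.

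In the transforming growth factor beta pathway, which induces several members in other cells, 4 of 12 genes tested were lower and 2 higher in R10 ESCs (median -0.63 against 0.01), a share near the 45.8% of all genes called there. The ligands Tgfb2 and Tgfb3 and the receptor Tgfbr2 fell by 3.16, 2.87 and 4.77, and the inhibitor Smad7 rose by 3.78. In R10 WT cells at day 2, Tgfb2 and Tgfb3 were higher by 2.34 ± 0.44 and 2.65 ± 0.41 (limma adjusted p = 0.0155 and 0.00902), 2 of 5 genes of this list called higher among 12, where 26.8% of all genes were called in either direction. In R9 OKMS cells 5 of 13 were lower than in OKS cells and none was higher, where 11% of all genes were called lower.

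Among E proteins and their Id inhibitors, 4 of 6 were lower in R10 ESCs (Tcf12, Id1, Id2 and Id3) and Id4 was higher, where 23.5% of all genes were called lower and 45.8% in either direction. Tcf12, a second E protein, fell by 3.39 ± 0.19 (limma adjusted p = 3.96e-10). In WT cells at day 2, where 26.8% of all genes were called in either direction, Id1, Id2, Id3 and Id4 were higher, Id4 from 0.733 to 75.7 CPM (5.51 ± 0.40, limma adjusted p = 0.00157) and Id3 from 588 to 3525 CPM, and Tcf12 was lower (-1.07 ± 0.22, limma adjusted p = 0.0197). All 4 Id genes were lower in OKMS than in OKS in R9, where 11% of all genes were called lower, Id3 by -1.65 ± 0.25 (limma adjusted p = 0.00126). Of 15 cofactors of the Snail and Zeb repressors, 3 were lower in R10 ESCs (Limd1 by 4.06, Nr2f2 by 3.16 and the corepressor Ctbp1 by 2.05) and Ajuba was higher by 1.71, fewer than the 45.8% of all genes called there (median -0.13 against 0.01). Limd1 was also lower in WT cells at day 2 (-2.12 ± 0.23, limma adjusted p = 0.00353).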

How the data were processed

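RNA of 45 mouse libraries was sequenced on Oxford Nanopore flow cells, 22 by direct cDNA (R9) and 23 by PCR cDNA (R10). Per the submitters' processing notes, reads were aligned with minimap2 2.24-r1122 to mm10. The authors deposited gene levels as CPM and transcript levels as TPM, both under the name Isoquant. The version of that tool and its use of strand are not given in the sources used here. The read counts behind the deposited CPM were recovered: 100% of the values above 0 were whole reads within 0.02 reads. The gene table's 13 columns that match no sample were not used.

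From these values, log2(CPM + 1) or log2(TPM + 1) was fitted over all features with limma 3.58.1 (R 4.3.3; lmFit, then eBayes with a trend), separately for R9 and R10 except for the 2i-LIF pairs and the test between chemistries. Features needed at least 1 CPM or TPM in as many libraries as the smaller group. edgeR 4.0.16 (quasi-likelihood) and DESeq2 1.42.0 on the recovered counts, another pseudocount, filter and normalization, and leaving out each library were the alternatives. Each fit was tested on simulated data. Of 200 genes changed 4-fold, 99% were recovered in R10 ESCs versus NPCs, 70.5% in R9, 75% in R10 WT cells, and 67% to 77% in the fits against day 0. The changed genes were drawn from those above a minimum mean level. The same extra variation was set for all genes, with no effect of day or culture. Snai2 and Twist2 lay below that minimum level, so the recovered shares do not apply to them.

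The members and lists were chosen with earlier results of these data known. Named are the members, their transcripts of at least 10% of the member's TPM in 1 chemistry, the 3 genes most like each member of at least 5 CPM, up to 4 called genes per list with the largest R10 ESC versus NPC difference, and overlapping or antisense genes. Sequences came from RefSeq and the GRCm38 reference, the build of mm10.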

Additional observations from a re-analysis of the deposited data

Results flagged for a closer look

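In 23 groups of 4 to 10 libraries with a member, the lowest or highest library was compared with the rest by Dixon's gap, which marks about 1 group in 20 by chance; 3 were marked. Zeb1 in R10 ESC O4G replicate 2 was 7.617 CPM, below the other 6 ESC libraries. Snai2 in R9 NPC WT replicate 1 was 1.337 CPM while the other 3 NPC libraries were at 0, which is a single read. Prrx1 in R10 ESC R1 replicate 3 was 0.3734 CPM, also a single read, with the other 6 at 0.

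The drop of Twist1 from NPCs to ESCs differed between the chemistries: it was smaller in R10 by 1.43 on the log2 scale (interaction term, limma adjusted p = 0.043). With a pseudocount of 0.25 the Twist1 difference was 1.07 (limma adjusted p = 0.27) and in edgeR 0.75 (adjusted p = 0.86), so the call rests on the log2(CPM + 1) scale.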

How the results depend on the processing

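Of 262 recomputed counts of members or member transcripts called, 212 stayed within 1.5 times the main count, as did 2879 of 2974 single values on their side of the threshold. The number of members called became 2 in R9 late versus day 0 with DESeq2 and when late days excluded day 10. R10 early versus day 0 gave 1 (Zeb1) with a minimum of 5 CPM, quantile normalization, median centring, edgeR, DESeq2 and all 4 NPC libraries as day 0. The R10 WT medium comparison gave 2 with DESeq2 (Zeb1 and Prrx1). 2i-LIF versus FBS-LIF dox gave 1 with DESeq2, with the 3 R9 pairs alone, with a minimum of 5 CPM, without a filter and with 0.25 as pseudocount. R10 2i-LIF day 18 versus ESC gave 0 with DESeq2, FBS-LIF dox day 18 versus ESC gave 1 with a minimum of 5 CPM, and R9 OKMS versus OKS gave 0 without the day block and 0 in the 3 R10 days added after seeing the data. Member transcripts called were 46 without a filter and 8 at a minimum of 5 TPM in R10, and 2 at a minimum of 5 TPM in R9.

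When each library was left out in turn, the members called ranged from 5 to 5 in R10 and 5 to 6 in R9 ESCs versus NPCs, 0 to 1 in R9 early, 0 to 2 in R9 late, 0 to 2 in R9 late versus early, 0 to 1 in R10 early, 0 to 3 in R10 late, 3 to 5 in R9 OKMS versus OKS, 0 to 0 in the WT medium comparison, 1 to 2 in 2i-LIF versus FBS-LIF dox, 0 to 2 in R10 2i-LIF versus ESC and 2 to 4 in FBS-LIF dox day 18 versus ESC. Transcripts called ranged from 30 to 38 in R10 and 1 to 2 in R9. Zeb1 in FBS-LIF dox day 18 versus ESC moved from -0.57 to 1.21 without the OKMS library and to -2.35 without the OKS library; the cause was not tested. The WT libraries of NPCs and day 2 share replicate numbers 2 and 3: with number as a replicate block 2 members were called instead of 1, Prrx1 (2.54, limma adjusted p = 1.95e-05) beside Zeb1, and the deviations of same-numbered libraries correlated at 0.47 over genes, with 2 pairs. For ESCs against NPCs in R10 no replicate block could be fitted, since the groups share fewer than 2 numbers. The R9 interaction without either day 0 library was not run. Depth limits Snai2 and Twist2, which lie at or below the limit of a count of 0 in most libraries.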

Other observations

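The relatives Snai3 and Prrx2 were examined after their values had been seen, and no test was made. Snai3, a Snail-family gene outside the members, was at 0 in all 8 NPC libraries and in the 3 WT libraries at day 2. In R9 it was 8.439, 7.386 and 7.388 CPM in OKMS at days 10, 14 and 20 in FBS-LIF dox, and in OKS 0 and 0.8272 CPM at days 10 and 14 and 20.12 CPM at day 20. In R10 it was 1.064, 8.832, 11.03 and 5.935 CPM in OKMS at days 4, 6, 10 and 18, and 10.24 CPM in OKS at day 18. In 2i-LIF it was at most 3.527 CPM, and in ESCs at most 1.344 CPM.

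Prrx2, the paralogue of Prrx1, was 1.346 to 3.373 CPM in R9 NPCs and 0 to 0.5739 CPM in R10 NPCs. At day 2 it was 43.86 CPM in the R9 WT library, 49.47 CPM in R9 OKS and 20.34 CPM in R9 OKMS, and 5.089 and 13.18 CPM in the R10 WT libraries. The same WT libraries had 256.1 CPM of fibroblast markers in R9 and 42.28 and 152.9 CPM in R10, whose part in the Prrx2 values was not tested.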
